A study of Mus musculus with 18 samples.

Results

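The levels of 5 genes with roles in the nervous system were followed through 18 mouse mammary tumors: the motor protein gene Kif1a, the glutamate receptor gene Grin1, the cell surface gene Lrrn2, the ubiquitin ligase gene Fbxo2 and the RNA-binding protein gene Msi1. They are 5 of the 57126 genes in the count table. The genes were chosen by name for being raised in MaP R172H/- tumors against MaP -/- tumors, so their levels in those groups are given as a description, with no test. In each gene, most of the MaP R172H/- mean was carried by 1 to 3 of the same 3 tumors, YZ4, YZ7 and YZ11, so that the median of the group was 1.59 to 4.32 times that of the MaP -/- tumors while its mean was 5.16 to 9.63 times theirs.

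The tumors arose in female mice of an F1 hybrid BALB/c and C57BL6/J background after adenovirus with Cre recombinase was injected into the mammary gland at 10 to 12 weeks of age. The series held 7 MaP R172H/- tumors, in which the epithelial cells carry the p53R172H missense mutant over a null allele, 5 MaP R245W/- tumors with the p53R245W mutant over a null allele, and 6 MaP -/- tumors from 4 mice, which lost both Trp53 alleles. Recombination was limited to infected mammary epithelium, so stroma and immune cells in every tumor kept wild-type Trp53. MaP R172H/- tumors YZ2, YZ6 and YZ10 and MaP R245W/- tumors JM1233, JM1564 and RM0014 also carried a Rosa26 LSL-TdTomato reporter allele. The MaP R172H/- libraries were sequenced on an Illumina HiSeq 4000 and all others on a NovaSeq 6000, so the instrument and this genotype cannot be told apart. The same holds for tumor subtype. The paper classed all 7 MaP R172H/- tumors as nonmetaplastic adenocarcinomas, luminal B or HER2-enriched. It classed the tumors of both other genotypes as triple-negative, with metaplastic and nonmetaplastic histology. Bulk RNA of whole tumor pieces was measured, in which more cells of a type and more RNA per cell cannot be told apart.

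The 5 genes are best known from neurons and their precursors. Kif1a is a kinesin of the kinesin-3 family that carries synaptic vesicle precursors along axons. Grin1 encodes the obligatory subunit of NMDA receptors, the glutamate-gated channels of excitatory synapses. Lrrn2 encodes a transmembrane protein with leucine-rich repeats of a small neuronal family. Fbxo2 encodes an F-box protein that is abundant in brain and recognizes glycoproteins for an SCF ubiquitin ligase. Msi1, Musashi-1, encodes an RNA-binding protein of neural stem cells and other epithelial progenitors, the mammary gland included. Many neuronal genes are held silent outside the nervous system by the repressor REST, which binds a motif called RE1.

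Kif1a (ENSMUSG00000014602.16) lies on chromosome 1 from 92942641 to 93029752 on the minus strand, in GRCm39 coordinates. Lrrn2 (ENSMUSG00000026443.4) lies on the same chromosome from 132807600 to 132870402 on the plus strand. Grin1 (ENSMUSG00000026959.14) lies on chromosome 2 from 25181186 to 25209226 on the minus strand. Fbxo2 (ENSMUSG00000041556.9) lies on chromosome 4 from 148244593 to 148250881, and Msi1 (ENSMUSG00000054256.12) on chromosome 5 from 115567419 to 115593757, both on the plus strand.

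Because the study followed the nuclear receptor Nr5a2, the upstream sequence of the 5 genes was searched on both strands for CAAGGTCA and CAAGGCCA, letters to which Nr5a receptors are known to bind. Neither was found in the 250 bases before the canonical start of any of the 5 genes, and 3.16% of 21685 protein-coding genes had a match there. Within 10000 bases upstream, each of the 5 genes had 2 to 6 matches, and 81.4% of protein-coding genes had at least 1. The match nearest to each start is printed to show the letters searched, with the 8 matched bases in capitals and read 5′ to 3′ on the strand of the match.
Kif1a: ctctgtgagttCAAGGCCAgcctggtccac
Grin1: cttgattcttcCAAGGTCAggaagaggccc
Lrrn2: agatcagaactCAAGGTCAttgcataaaga
Fbxo2: agggaccttccCAAGGTCAcacaaacagga
Msi1: ctctttgaaccCAAGGCCAgcccgatctac
The windows lie at chr1:93032541-93032570, minus strand, 2799 bases before the Kif1a start; at chr2:25209486-25209515, plus strand, 284 bases before that of Grin1; at chr1:132805278-132805307, minus strand, 2303 bases before that of Lrrn2; at chr4:148243565-148243594, plus strand, 1289 bases before that of Fbxo2 and in an exon, annotated as UTR, of Fbxo44; and at chr5:115559952-115559981, plus strand, 7448 bases before that of Msi1. The first 3 windows lie between annotated genes and the last lies in an exon of A930005G22Rik and an intron of Gm13832. The matches describe letters only.

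An RE1 core, searched as CAGCACC followed by any pair of bases and GGACAG, from 10000 bases upstream to 5000 bases downstream of each start, was found in 1 of the 5 genes, Grin1, and in 0.821% of all protein-coding genes. It is printed with the matched letters in capitals to show the letters searched. Only these exact letters at this spacing were matched, so sites that differ from them were not counted. Binding of REST was not tested.
Grin1 RE1: tacgcttCAGCACCTCGGACAGcacccgcc
The window lies at chr2:25209022-25209051 on the minus strand, 168 bases after the canonical start, in an exon of Grin1 where a UTR is annotated.

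Total counts ran from 23113578 to 37365062 per tumor. Tumor YZ7 stood apart from its group, with a median Spearman correlation over all genes of 0.884 with the other MaP R172H/- tumors, where those tumors had medians of 0.936 to 0.956. Tumor YZ11 had Trp53 at 10.8 CPM (counts per 1000000 counts of the library, whose size was scaled with TMM factors), within the MaP -/- range of 9.41 to 21.6 CPM, while the other 6 MaP R172H/- tumors had 41.3 to 50.1 CPM and the MaP R245W/- tumors 9.08 to 58.9 CPM. Groups were kept as labelled, p-values measure the spread between tumors, and values without these tumors are given for each gene.

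Kif1a had the largest contrast between the mean and the median of the MaP R172H/- group. Its level was 170.1 CPM in YZ7 and 159.8 CPM in YZ4, and 2.16 to 7.47 CPM in the other 5 tumors. The group mean was 50.5 ± 78.3 CPM (SD, n = 7) and the median 6.64 CPM. In MaP -/- tumors Kif1a ran from 3.13 to 10.5 CPM with a median of 4.19 CPM and a mean of 5.24 ± 2.74 CPM (SD, n = 6). In MaP R245W/- tumors it was 3.27 CPM in JM1233, 2.22 in JM1564, 2.01 in RM0014, 15.7 in JM1126 and 1.91 in JM1133. YZ4 and YZ7 were the only MaP R172H/- tumors above the highest MaP -/- tumor, and the other 5 lay within or below the MaP -/- range. The fitted log2 fold change of MaP R172H/- against MaP -/- was 3.29 (SE 1.11).

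Grin1 was low throughout and was the gene for which most MaP R172H/- tumors shared in the difference. Its highest level was 4.51 CPM in YZ11, from 100 counts, followed by 1.82 CPM in YZ4 and 1.06 CPM in YZ6. YZ3 had 0.882, YZ7 0.833, YZ2 0.604 and YZ10 0.411 CPM, so that YZ7, the highest tumor for the other 4 genes, was near the middle of its group for this gene. MaP -/- tumors ran from 0.0323 to 0.677 CPM with a median of 0.204 CPM. In MaP R245W/- tumors the level was 0.494 CPM in JM1564, 0.888 in RM0014, 0.0958 in JM1126 and 0.114 in JM1133, with 0 counts in JM1233, which allows up to 0.0894 CPM at 3 counts, for counting error only. In all, 5 of 7 MaP R172H/- tumors lay above the highest MaP -/- tumor, and all 7 lay above the MaP -/- median, the latter also being so for Lrrn2. How often this holds over all genes was not counted. The mean was 1.45 ± 1.42 CPM (SD, n = 7) against 0.280 ± 0.237 CPM (SD, n = 6), with a fitted log2 fold change of 2.36 (SE 0.67).

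Lrrn2 was high in 3 MaP R172H/- tumors. It reached 24.8 CPM in YZ7, 10.9 CPM in YZ11 and 5.06 CPM in YZ4, and lay between 1.17 and 1.64 CPM in the other 4, a range that falls inside that of the MaP -/- tumors, 0.420 to 2.74 CPM. The MaP R172H/- mean was 6.62 ± 8.76 CPM (SD, n = 7) and the median 1.64 CPM. The MaP -/- mean was 1.15 ± 0.872 CPM (SD, n = 6). MaP R245W/- tumors held 1.07 CPM in JM1233, 0.432 in JM1564, 0.602 in RM0014, 2.43 in JM1126 and 0.687 in JM1133. The fitted log2 fold change of MaP R172H/- against MaP -/- was 2.53 (SE 0.82).

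Fbxo2 rested on a single tumor more than any other of the 5 genes. It had 29.4 CPM in YZ7, 670 counts, and 5.73 CPM in YZ11, and the other 5 MaP R172H/- tumors ran from 0.329 to 0.760 CPM. YZ7 was 39.7 times the group median and 5.13 times the next tumor. MaP -/- tumors ran from 0.188 to 1.63 CPM with a median of 0.394 CPM, the highest being JM663-T1. MaP R245W/- tumors had 0.208 CPM in JM1233, 0.278 in JM1564, 0.344 in RM0014, 0.287 in JM1126 and 0.458 in JM1133, all within or below the range of those other 5 tumors. The MaP R172H/- mean was 5.41 ± 10.8 CPM (SD, n = 7) against 0.630 ± 0.532 CPM (SD, n = 6) in MaP -/- tumors, with a fitted log2 fold change of 3.11 (SE 1.15).

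Msi1 was high in the same pair of tumors as Kif1a, and also moderately high in single tumors of the other genotypes. It had 12.7 CPM in YZ7, 9.59 CPM in YZ4 and 2.31 CPM in YZ6. The other 4 MaP R172H/- tumors ran from 0.180 to 0.918 CPM, and YZ11, at 0.180 CPM, was the lowest of all 18 tumors. MaP -/- tumors ran from 0.338 to 1.48 CPM with a median of 0.505 CPM. MaP R245W/- tumors had 2.98 CPM in RM0014 and 3.22 CPM in JM1126, both above every MaP -/- tumor, and 0.476 in JM1233, 0.679 in JM1564 and 0.305 in JM1133. The MaP R172H/- mean of 3.79 ± 5.14 CPM (SD, n = 7) compared with 0.722 ± 0.476 CPM (SD, n = 6) in MaP -/- tumors, and the fitted log2 fold change was 2.40 (SE 0.95).

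**Figure D1:**
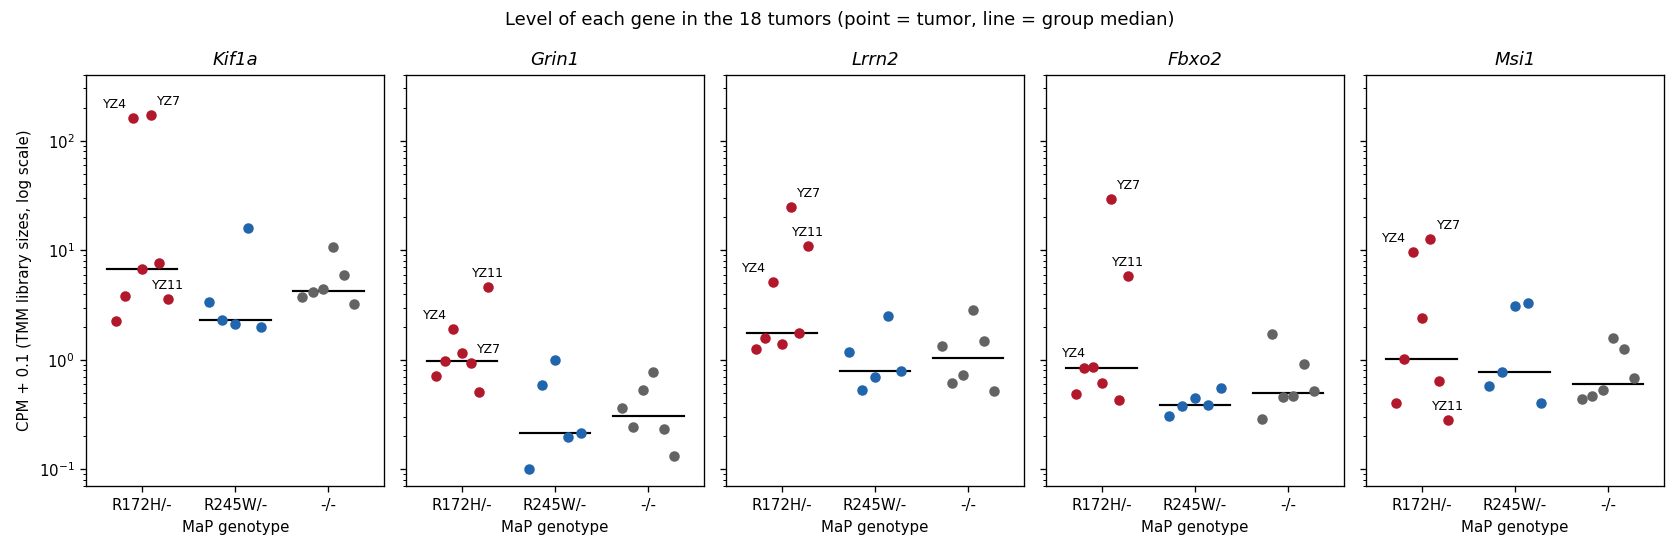
Level of each gene in the 18 tumors as CPM + 0.1 on a log scale, by MaP genotype, with a point per tumor and a line at the group median. YZ7 and YZ4 lie above all other tumors for Kif1a and Msi1, YZ7 for Lrrn2 and Fbxo2 and YZ11 for Grin1, while the MaP R172H/- median is 4.32 times the MaP -/- median for Grin1 and at most 1.88 times for the other genes.

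Per kilobase of exon, the MaP R172H/- means were 4.64 CPM per kb for Kif1a, 3.08 for Fbxo2, 0.803 for Lrrn2, 0.627 for Msi1 and 0.130 for Grin1. The medians per kilobase were lower and closer together, at 0.611 CPM per kb for Kif1a, 0.423 for Fbxo2, 0.199 for Lrrn2, 0.152 for Msi1 and 0.0796 for Grin1. The order of the 5 genes was the same by mean and by median.

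The share of the MaP R172H/- sum of CPM carried by the highest tumor was 77.7% for Fbxo2, 53.5% for Lrrn2, 48.1% for Kif1a and 47.8% for Msi1, in each case YZ7, and 44.6% for Grin1 in YZ11. Over the 20954 genes tested in that comparison, the highest tumor carried a median of 22.02% and a 90th percentile of 38.3%. A larger share than that of Fbxo2 was seen in 0.821% of those genes, and a larger share than that of Grin1, the smallest of the 5, in 6.44%. YZ7 was the highest MaP R172H/- tumor for 27.99% of all genes tested, more than any other tumor of the group. The highest pair of tumors carried 93.4% of the Kif1a sum, 92.8% of the Fbxo2 sum, 84.0% of the Msi1 sum, 77.0% of the Lrrn2 sum and 62.6% of the Grin1 sum. Together YZ4, YZ7 and YZ11 carried 94.8% for Fbxo2, 94.4% for Kif1a, 88.0% for Lrrn2, 84.7% for Msi1 and 70.8% for Grin1. These 3 tumors lacked the TdTomato reporter allele, as did YZ3, in which only Grin1 was above the highest MaP -/- tumor.

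**Figure D2:**
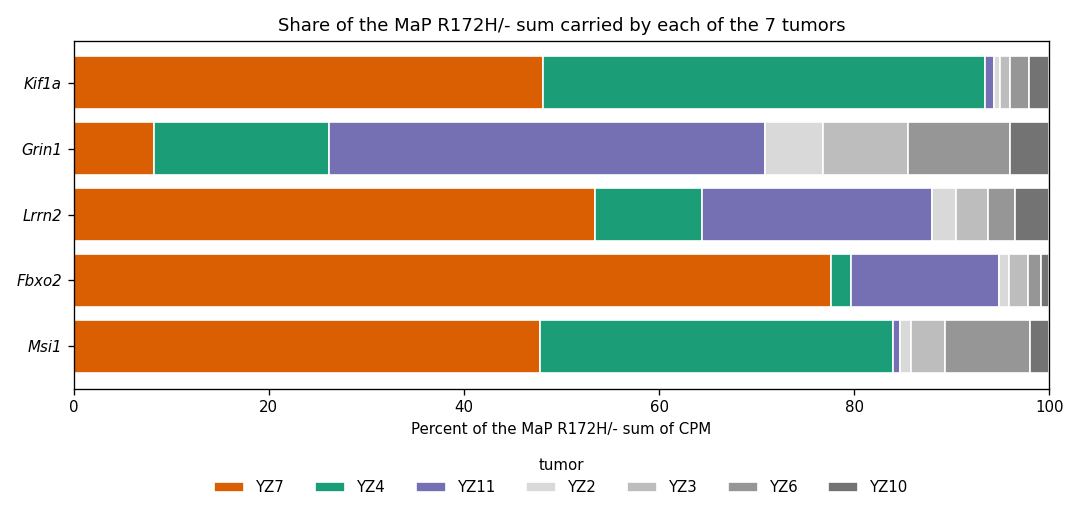
Percent of the MaP R172H/- sum of CPM carried by each of the 7 tumors, with a bar per gene and a colour per tumor. YZ7 alone carries 77.7% of the Fbxo2 sum, YZ7 and YZ4 carry 93.4% of the Kif1a sum, and YZ4, YZ7 and YZ11 together carry 70.8% of the Grin1 sum and up to 94.8%, for Fbxo2.

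In the other groups the share of the highest tumor was 33.4% for Kif1a, 40.3% for Grin1, 39.6% for Lrrn2, 43.2% for Fbxo2 and 34.1% for Msi1 among the 6 MaP -/- tumors. JM833-T1 was the highest MaP -/- tumor for all of these genes but Fbxo2, and its sister tumor JM833-T2 from the same mouse was second for Kif1a, Lrrn2 and Msi1. Among the 5 MaP R245W/- tumors the share was 62.6% for Kif1a, 46.5% for Lrrn2 and 42.1% for Msi1, all in JM1126, 55.8% for Grin1 in RM0014 and 29.1% for Fbxo2 in JM1133. Single tumors with much of the sum were therefore also seen outside the MaP R172H/- group, at lower levels.

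Leaving out tumors moved the fitted differences between MaP R172H/- and MaP -/- tumors, as values with no test. Without YZ7 the log2 fold change was 1.17 for Fbxo2, 1.66 for Lrrn2, 1.71 for Msi1, 2.59 for Kif1a and 2.46 for Grin1. The value for Kif1a was also 2.59 without YZ4, and it was -0.13 without both, a set of tumors left out after the data had been seen. For Msi1 the value without both was 0.26. Without YZ11 that of Grin1 was 1.72. Without YZ4, YZ7 and YZ11 the values were 1.41 for Grin1, 0.52 for Msi1, 0.31 for Lrrn2, -0.035 for Kif1a and -0.31 for Fbxo2, so that only Grin1 kept more than 1 on the log2 scale. In the other 4 tumors Grin1 had a median of 0.743 CPM, with 2 of them, YZ3 and YZ6, above the highest MaP -/- tumor.

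**Figure D3:**
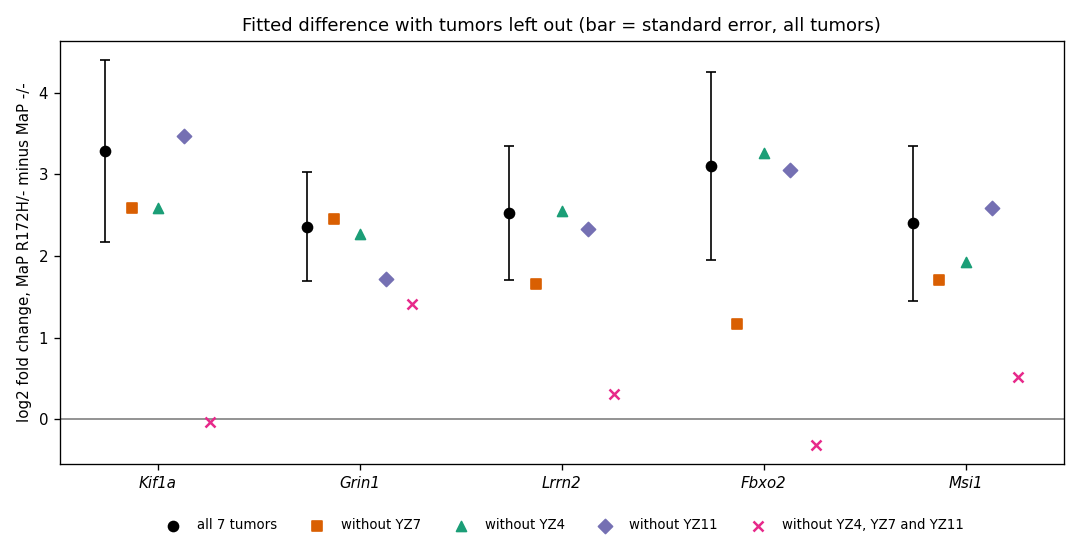
Fitted log2 fold change of MaP R172H/- against MaP -/- tumors for each gene, with all tumors (circle, with its standard error), without YZ7, YZ4 or YZ11, and without all 3. Without the 3 tumors the value for Grin1 is 1.41 and those of the other genes lie between -0.31 and 0.52.

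By edgeR with an FDR threshold of 0.05, MaP R172H/- tumors had 768 of 20954 genes higher, 3.67%, and 992 lower, 4.73%, relative to MaP -/- tumors. These shares are given as the background of that comparison, on which the 5 genes were chosen, and nothing is read from them about the 5 genes.

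The MaP R245W/- tumors did not enter the choice of the genes, although the MaP -/- tumors did, so this comparison was tested. None of the 4 genes that passed the filter on low counts passed an FDR of 0.05, in a comparison where edgeR called 0% of 21452 genes higher and 0% lower. In that comparison 2527 genes had an unadjusted p below 0.05 and DESeq2 called 427 genes at an FDR below 0.05. The log2 fold change of MaP R245W/- against MaP -/- was -0.07 for Kif1a (95% CI -1.26 to 1.12, edgeR FDR = 0.973) and -0.15 for Lrrn2 (95% CI -1.29 to 0.99, edgeR FDR = 0.933). It was -1.001 for Fbxo2 (95% CI -2.01 to 0.01, edgeR FDR = 0.465) and 1.07 for Msi1 (95% CI -0.24 to 2.38, edgeR FDR = 0.541). These intervals used a normal quantile times the standard error, which is too narrow for so few tumors. For Fbxo2 the unadjusted edgeR p was 0.0774. Even so, the intervals leave room for differences of more than 1 on the log2 scale, in either direction for Kif1a. The value for Kif1a rested on JM1126 and was -1.16 without it. That of Lrrn2 was -0.72 without JM1126 and 0.32 without JM833-T1. That of Fbxo2 was -0.46 without JM663-T1, its highest MaP -/- tumor. That of Msi1 was 0.62 without JM1126 and 0.71 without RM0014. Grin1 was too low to be tested, with means of 0.319 CPM in MaP R245W/- and 0.280 CPM in MaP -/- tumors. Side by side, the log2 fold change of MaP R172H/- against MaP R245W/- tumors, with no test, was 4.09 for Fbxo2, 3.33 for Kif1a, 2.66 for Lrrn2, 2.15 for Grin1 and 1.302 for Msi1.

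The 5 genes did not share a single pattern over the 18 tumors. On the log2(CPM + 0.5) scale, Kif1a and Msi1 had a Pearson r of 0.86 and a Spearman rho of 0.61, and Lrrn2 and Fbxo2 had an r of 0.81 with a rho of 0.37. Kif1a and Lrrn2 had an r of 0.74 and a rho of 0.70, the highest rho of the 10 pairs. Grin1 had an r of 0.26 with Msi1, 0.28 with Kif1a and 0.60 with Lrrn2. The 18 values of a pair share libraries and scaling, so these are descriptions only. In words, YZ4 and YZ7 were the high tumors for Kif1a and Msi1, YZ7 and YZ11 for Lrrn2 and Fbxo2, and YZ11 and YZ4 for Grin1.

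The genes next to each member were compared in the tumor where that member was highest. Beside Kif1a, YZ7 had 29.4 CPM of Capn10 against 17.3 to 25.9 CPM in the other 6 tumors, and none of the 6 nearest protein-coding genes was more than 1.44 times the median of the other tumors. Kif1a itself was 25.6 times the group median there. Mab21l4, 49319 bases away, had 0 CPM in YZ7 and 1.45 to 13.98 CPM in the others. Beside Msi1, Sirt4, a mitochondrial sirtuin, had 15.9 CPM in YZ7 against 7.76 to 10.7 CPM, 1.84 times the median of the others, and Gatc had 29.9 against 12.3 to 21.5 CPM, 1.57 times. Both were at their highest of the 18 tumors in YZ7, where Msi1 was 13.8 times the group median.

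Beside Lrrn2, Nfasc stood out in YZ7 at 187.5 CPM, against 1.86 to 7.04 CPM in the other 6 MaP R172H/- tumors and at most 18.6 CPM in the other groups. Nfasc encodes neurofascin, an adhesion molecule of nodes of Ranvier and axon initial segments. It ends 138036 bases from Lrrn2. Mdm4, the p53 inhibitor gene 16820 bases to the other side, had 117.4 CPM in YZ7 and 116.9 to 187.0 CPM in the others. Beyond Nfasc, Cntn2, which encodes an axonal adhesion molecule, had 2.19 CPM in YZ7 and 98.9 CPM in YZ4, where Lrrn2 had 5.06 CPM.

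Beside Fbxo2, 4 of the 5 neighbouring protein-coding genes described here had their highest level of all 18 tumors in YZ7. Fbxo44, a close relative that lies head to head with Fbxo2, had 52.7 CPM against 5.96 to 15.3 CPM in the other 6 tumors, and its second highest tumor of the group was YZ11, as for Fbxo2. Mad2l2 had 29.8 CPM against 5.90 to 10.9 CPM, Disp3 1.14 against 0.0431 to 0.198 CPM and Mtor 171.1 against 84.0 to 126.4 CPM. Fbxo6, another glycoprotein-binding F-box gene, was the exception, with 22.6 CPM in YZ7 and 13.4 to 23.8 CPM in the others. In YZ7, then, neighbours on both sides of Fbxo2 were high as well. YZ7 was the highest MaP R172H/- tumor for 27.99% of all genes tested, and whether the neighbours exceed that background was not tested.

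Beside Grin1, the neighbour Lrrc26, which encodes an auxiliary subunit of BK potassium channels in secretory epithelia, was 22.8 CPM in YZ11 and 9.36 CPM in YZ4, the tumors in which Grin1 was highest, and 0.263 to 1.60 CPM in the other 5. Lrrc26 runs on the opposite strand and overlaps the end of Grin1 by 7 bases. The antisense long noncoding RNA Grin1os lies within Grin1 over 7706 bases. Its level was 4.92 CPM in YZ11, 1.46 CPM in YZ4, 0.938 in YZ6, 0.904 in YZ10, 0.847 in YZ3, 0.388 in YZ2 and 0.132 in YZ7, and at most 0.544 CPM in the other groups. The library kit was stranded, but the strand setting of the counting was not given in the sources used here, so reads of Grin1, Grin1os and Lrrc26 cannot be told apart with certainty. The same holds for Fbxo2 and Fbxo44, which overlap by 410 bases on opposite strands.

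**Figure D4:**
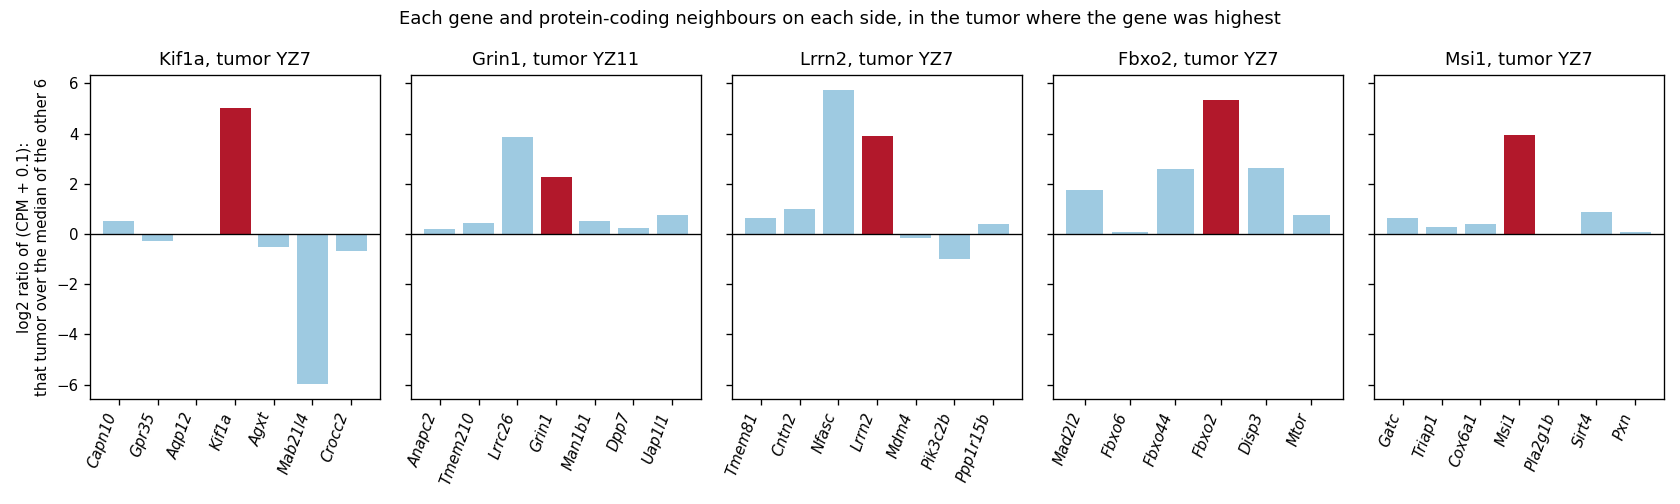
Log2 ratio of CPM + 0.1 in the tumor where a gene was highest to the median of the other 6 MaP R172H/- tumors, for the gene (red) and 2 or 3 protein-coding neighbours on each side (blue), in order along the chromosome. Nfasc is high beside Lrrn2, Lrrc26 beside Grin1, and 4 of the 5 neighbours of Fbxo2 drawn lie above 0.5.

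The cell type markers of the 3 tumors differed. YZ7 had the lowest luminal epithelial levels of its group: Krt8 was 17.98 CPM against 440.2 to 2571 CPM in the other 6 tumors, Epcam was 24.5 CPM against 517.1 to 1177 CPM, and the 14 luminal genes summed to 398.8 CPM. The MaP -/- tumor JM779-T1, which differs from YZ7 in genotype and instrument, was also low in Krt8, at 25.1 CPM. Its levels of the 5 genes ran from 0.0323 CPM for Grin1 to 3.13 CPM for Kif1a. YZ7 was the highest MaP R172H/- tumor for 9 of the 12 Schwann cell and peripheral glia genes, and for 27.99% of all genes tested. Their sum was 1235 CPM in YZ7, 214.7 to 604.5 CPM in the other MaP R172H/- tumors and 32.5 CPM in JM779-T1, which thus differed from YZ7 here. Of the Schwann cell markers, Sox10, which mammary epithelium also expresses, was 607.2 CPM in YZ7 and 111.3 to 469.1 CPM in the rest of its group. The part of luminal or glial cells in the levels of the 5 genes was not tested.

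Markers of neurons were uneven in the same tumors. In YZ7 Tubb3, a neuronal tubulin, was 69.3 CPM against 2.22 to 4.87 CPM in the other MaP R172H/- tumors, and Prph, a peripheral neuron filament, was 118.7 CPM. JM779-T1 had 46.1 CPM of Tubb3. Of the other defining neuron markers, Rbfox3 and Syt1 were at most 0.658 and 0.976 CPM in all 18 tumors, and Snap25 was at 0 in YZ7 and YZ11 and at 11.54 CPM in YZ4. Map2 went the other way, with 108.4 to 244.4 CPM in MaP R172H/- tumors, the highest in YZ7. It was 7.47 to 119.7 CPM in MaP R245W/- and 17.4 to 122.8 CPM in MaP -/- tumors. Its log2 fold change of MaP R172H/- against MaP -/- tumors was 1.105 (edgeR FDR = 0.128). Of the neuroendocrine markers, Insm1 was at most 0.640 CPM in any tumor, Syp reached 3.66 CPM in JM833-T1, and Chga was 5.83 CPM in YZ7 and at most 1.43 CPM elsewhere.

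YZ4 was the highest MaP R172H/- tumor for 5 of 10 basal epithelial genes and YZ7 for the other 5, beside 12.95% and 27.99% of all genes tested. The basal sum was 3816 CPM in YZ4, 2354 CPM in YZ7 and 319.8 to 701.9 CPM in the other 5 tumors. In the MaP -/- tumor JM779-T1 it was 58.0 CPM. Krt5 was 439.4 CPM in YZ4 and 34.3 CPM in YZ7, and Trp63 was 187.4 CPM in YZ7 and 119.5 CPM in YZ4. Krt14 was 625.3 CPM in YZ4 but 34.2 CPM in YZ7, the lowest level of the group, as was Krt17 in YZ7 at 10.9 CPM. The largest part of the basal sum in YZ7 was Acta2, at 1149 CPM. YZ4 and YZ7 are the tumors in which Kif1a and Msi1 were highest, and the part of the basal cells in that was not tested. YZ4 was also the highest MaP R172H/- tumor for all 8 adipocyte genes, with a sum of 586.8 CPM. In YZ11 the luminal sum was at its highest, 11130 CPM, with 2571 CPM of Krt8. Between the MaP R172H/- and MaP -/- groups, 0 of 14 luminal, 10 basal, 8 adipocyte and 7 skeletal muscle genes tested passed in either direction. The log2 fold change was above 0 for 13 luminal, all 10 basal and 6 skeletal muscle genes, and below 0 for all 8 adipocyte genes. Its median was 2.488 for basal, 0.779 for skeletal muscle and -3.304 for adipocyte genes. High levels in YZ4 and YZ7 entered the basal median. The lack of calls does not show that the groups had equal cell content. Among 12 immune cell genes 3 were lower, Ptprc, Adgre1 and Itgam, and among 10 fibroblast genes 3 were lower, Pdgfra, Lum and Fap, where 4.73% of all genes were lower. In MaP R245W/- tumors none of these lists had a gene past edgeR's test, as for all 21452 genes. There DESeq2 called 8 skeletal muscle genes higher and 3 adipocyte genes lower. Among the 57126 genes of the count table it called 170 higher and 257 lower. By edgeR the median value was 5.69 on the log2 scale over the 8 skeletal muscle genes tested, each with a positive value, and -6.41 over the 8 adipocyte genes, each with a negative one. Single high tumors entered both values. The sum of the 10 skeletal muscle genes listed was 1381 CPM in JM1233, with a MaP R245W/- median of 66.7 CPM. The adipocyte sum was 5779 CPM in JM833-T1, with a MaP -/- median of 95.3 CPM.

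**Figure D5:**
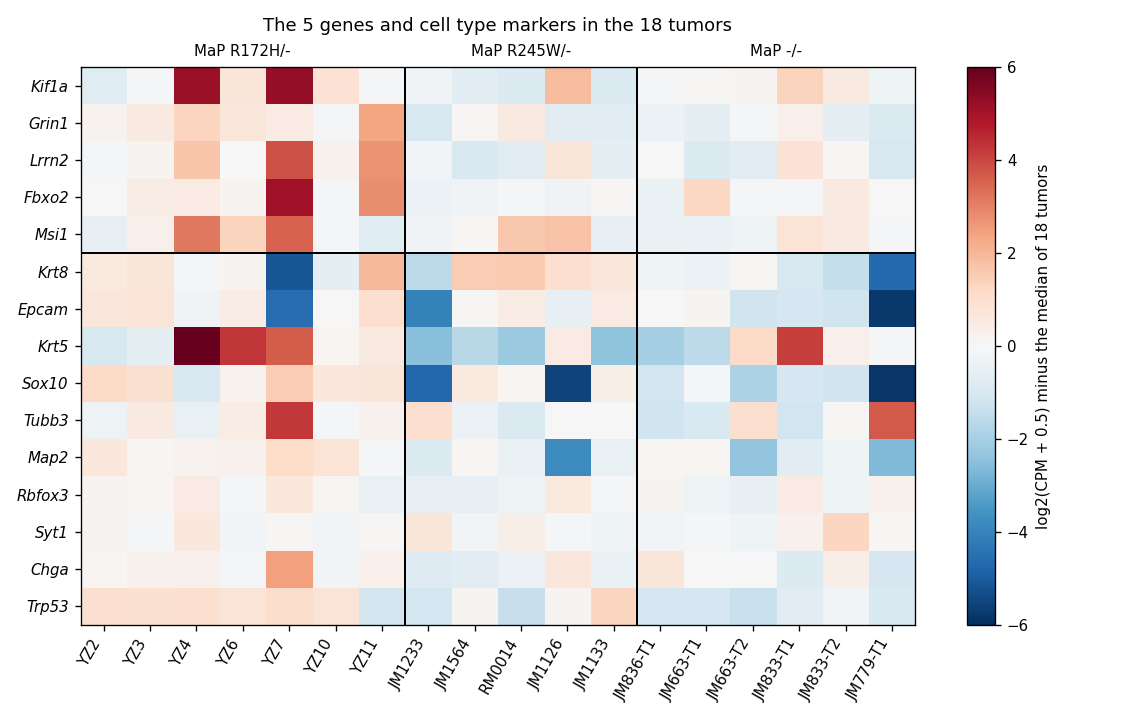
Log2(CPM + 0.5) of the 5 genes and of cell type markers in each tumor, minus the median of the 18 tumors, in colour, with differences beyond 6 drawn at 6. In YZ7 the 4 genes other than Grin1 lie high together with Tubb3 while Krt8 and Epcam lie low, and YZ4 pairs high Kif1a and Msi1 with high Krt5.

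Among the families of the 5 genes, most relatives did not pass the test. Of the 6 other kinesin-3 genes, Kif1c and Kif13a were higher in the MaP R172H/- group (log2 fold changes of 0.65 and 0.59, edgeR FDR = 0.0430 and 0.0342), against the background of 3.67% of genes higher. Neither passed without YZ3, YZ4, YZ11, JM836-T1, JM663-T1, JM663-T2 or JM833-T2, each left out alone, or with the tumors of a mouse summed. Both lay above 75 CPM in every MaP R172H/- tumor and had YZ11 as their highest tumor. Kif1b, the closest relative of Kif1a, had a log2 fold change of 0.17 (edgeR FDR = 0.774) and reached 593.0 CPM in YZ7. Kif13b had -0.39, Kif14 0.18 and Kif16b 0.34, none past the test. None of these genes passed the test in MaP R245W/- tumors.

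Of the 6 other NMDA receptor subunit genes, Grin2d, Grin3a and Grin3b could be tested and none passed, with log2 fold changes of 0.29, 0.08 and 0.73. The products of Grin2a, Grin2b, Grin2c and Grin2d pair with that of Grin1. Grin2a, Grin2b and Grin2c were at most 3.01, 2.32 and 0.614 CPM in any MaP R172H/- tumor. They were at most 0.0902 CPM or absent in YZ11, the tumor with the most Grin1. Grin2d was 0.857 CPM in YZ11, the lowest level of its group, and 3.42 CPM in YZ7. Of 11 other ionotropic glutamate receptor genes, 6 were tested and none passed. The largest value was that of Gria4, an AMPA receptor subunit, with 124.3 CPM in YZ7 and a median of 1.45 CPM in its group (log2 fold change 3.42, edgeR FDR = 0.135). Grik3, a kainate receptor subunit, was highest in YZ4 at 31.4 CPM (log2 fold change 1.12, edgeR FDR = 0.531).

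Of the Lrrn family, Lrrn3 alone could be tested and did not pass (log2 fold change 0.07, edgeR FDR = 0.955), with its highest level, 14.2 CPM, in YZ7. Lrrn1 and Lrrn4 were at most 0.463 and 0.331 CPM in MaP R172H/- tumors. Of the 4 other glycoprotein-binding F-box genes, Fbxo44 had a log2 fold change of 1.18 (edgeR FDR = 0.148), Fbxo6 0.11, Fbxo17 0.16 and Fbxo27 -0.39, and none passed. Of the 4 other SCF ligase genes listed, the adaptor gene Skp1, whose product binds F-box proteins, was lower (log2 fold change -0.61, edgeR FDR = 0.0263), where 4.73% of all genes were lower, and Cul1, Rbx1 and Skp2, the last an F-box protein of its own SCF complex, had values of 0.07, -0.18 and -0.10 that did not pass. Skp1 did not pass without JM836-T1, without JM663-T1 or in 1 fit of 3 groups. The Msi1 paralog Msi2 was abundant in all groups, at a median of 98.4 CPM in MaP R172H/- tumors, with a log2 fold change of 0.06 (edgeR FDR = 0.906).

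Over 5 lists of neural genes with the 5 members left out, 74 genes in all, 43 could be tested in the MaP R172H/- comparison. One was higher, the synaptic kinase gene Camk2b (log2 fold change 1.78, edgeR FDR = 0.0201), and 1 was lower, the neuronal stathmin Stmn2 (-5.71, edgeR FDR = 0.0323), beside 3.67% and 4.73% of all genes. Camk2b ran from 1.09 to 4.87 CPM in the 7 tumors, with at most 1.195 CPM in MaP -/- tumors. Stmn2 had at most 2.25 CPM in the MaP R172H/- group, with 133.7 CPM in JM663-T2, a MaP -/- tumor. Camk2b did not pass with the tumors of a mouse summed or in 1 fit of 3 groups. Without JM663-T2, 0 genes passed in either direction, and Stmn2 did not pass without any single MaP R172H/- tumor other than YZ7. The value was above 0 for 29 of the 43 genes with a median of 0.26, and the median over all genes was 0.003. YZ7 was the highest MaP R172H/- tumor for 19 of the 43 genes, YZ4 for 9 and YZ11 for 7, where they were highest for 27.99%, 12.95% and 17.6% of all genes tested. In MaP R245W/- tumors 0 of 45 genes passed in either direction, as for all genes, and the median was -0.31.

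List by list, 0 of 11 synaptic vesicle genes passed (Stx1a had a log2 fold change of 0.20), 1 of 11 postsynaptic scaffold genes was higher, 1 of 10 pan-neuronal genes was lower, and 0 of 5 neuroendocrine genes passed (Cpe -0.59 and Ncam1 1.07). Of 6 neural progenitor genes, the group to which Msi1 belongs by function, 0 passed. Notch1 had a log2 fold change of 0.66 (edgeR FDR = 0.0601) and Nes, which encodes nestin, one of 0.13. Sox2 was 16.01 CPM in YZ7 with a group median of 0.0353 CPM, and Pax6 was 42.5 CPM in YZ11 with a group median of 1.62 CPM. Of 12 Schwann cell genes 0 passed in either comparison, with 11 above 0 and a median of 1.19 in MaP R172H/- tumors.

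Candidate regulators were measured in the same tumors. In the MaP R172H/- group Rest lay between 93.3 and 156.0 CPM and had a log2 fold change of -0.24 (edgeR FDR = 0.528). It was 93.3 CPM in YZ4, 101.3 CPM in YZ7 and 156.0 CPM in YZ11, so that the tumor with the most Grin1 also had the most Rest of its group. Among 13 genes of the REST complex, 1 was higher, the histone methyltransferase gene Ehmt2 (log2 fold change 0.58, edgeR FDR = 0.0445), and 0 were lower, where 3.67% of all genes were higher and 4.73% lower. This call was lost when any single tumor other than YZ10 or JM779-T1 was left out, and when the tumors of a mouse were summed. Nr5a2 was low, with 0.302 to 5.12 CPM in MaP R172H/- tumors and a log2 fold change of -0.93 (edgeR FDR = 0.325). It was 1.72 CPM in YZ4, 1.49 CPM in YZ7 and 0.722 CPM in YZ11, against a MaP -/- median of 2.45 CPM, and its highest tumor, JM1564 with 8.74 CPM, was a MaP R245W/- tumor. Of the other Nr5a receptors and partners 3 could be tested, Ncoa1, Ncoa2 and Ncoa3, and none passed.

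The genes whose pattern over the 18 tumors was most like that of each member were named by Pearson r of log2(CPM + 0.5) among 15196 protein-coding genes. For Kif1a these were the homeobox gene Alx4 (r = 0.94), Ltb4r2 (0.93), Kcnip3 (0.93), Adgrf3 (0.93) and Xkr4 (0.92), each with YZ4 and YZ7 as its highest tumors. For Grin1 they were its neighbour Lrrc26 (0.89), Barx2 (0.86), Wnk2 (0.86), Reep6 (0.85) and Agbl5 (0.83). For Lrrn2 they were Tmem116 (0.93), Arhgap40 (0.90), Fndc10 (0.89), Rfx2 (0.89) and Fam20c (0.88). Fbxo2 was most like Slc9b1 (0.90), C1qtnf4 (0.87), Rbpjl (0.87), Tsc22d4 (0.86) and the neuronal tubulin gene Tubb4a (0.86), all highest in YZ7. Msi1 was most like Hoxb2 (0.91), Enho (0.86), Bmp7 (0.86) and Kif1a (0.86). For Fbxo2 the values of r fell to between 0.45 and 0.68 without YZ7, and for Kif1a they were 0.88 to 0.92.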

How the data were processed

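The authors isolated RNA from a piece of each tumor, depleted ribosomal RNA and made stranded libraries. The authors deposited whole-number counts per gene, made with STAR 2.7.10b and RSEM 1.3.3 on GRCm39. These counts were tested with edgeR 4.0.16 in R 4.3.3 (TMM, filterByExpr, quasi-likelihood test, Benjamini-Hochberg over all genes tested, FDR threshold 0.05). The 7 MaP R172H/- and the 5 MaP R245W/- tumors were each fitted with the 6 MaP -/- tumors, of which 2 mice gave 2 each. The scripts were tested on simulated data. CPM used TMM library sizes over the 18 tumors. Alternatives were DESeq2 1.42.0, other filters, size factors, fold thresholds, tumors of a mouse summed, 1 fit of 3 groups and tumors left out; leaving out YZ4 and YZ7, with or without YZ11, was chosen after seeing the data. The 5 genes and 21 gene lists were chosen with earlier results of these data known. Named were the 5 genes, their families, regulators, defining markers, 3 neighbours on each side, the 5 most alike genes, Trp53 and, from other lists, genes past the threshold or else the 2 most abundant; some genes that this rule names are not reported here. Prph, Sox2, Pax6, Grin1os and the overlapping genes were named after their values were seen. Motifs were searched with pysam 0.24.0 at GENCODE canonical starts.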

Additional observations from a re-analysis of the deposited data

Results flagged for a closer look

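In 15 sets of values, 5 genes in 3 groups, the gap between the highest tumor and the next was compared with the range of its group by Dixon's criterion, which chance meets in about 1 of 20 sets. The genes were chosen on these levels, so the number of sets that met it is a description, not to be read against chance. It was met in 5 sets, each by the highest tumor. In MaP R172H/- tumors these were Fbxo2 in YZ7 at 29.4 CPM, Lrrn2 in YZ7 at 24.8 CPM and Grin1 in YZ11 at 4.51 CPM. Kif1a was not among them in that group, since 2 tumors were high together. Kif1a met the criterion in the MaP R245W/- tumor JM1126 at 15.7 CPM and in the MaP -/- tumor JM833-T1 at 10.5 CPM.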

How the results depend on the processing

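Depth limits Grin1 most, with 10 to 100 counts in a MaP R172H/- tumor. Without YZ4, YZ7 and YZ11 the log2 fold change of MaP R172H/- against MaP -/- tumors was -0.035 for Kif1a, 1.413 for Grin1, 0.310 for Lrrn2, -0.310 for Fbxo2 and 0.521 for Msi1, and without YZ4 and YZ7 it was -0.131 for Kif1a and 0.259 for Msi1. The value of MaP R245W/- against MaP -/- for Kif1a was 0.003 with DESeq2 and 0.072 with the tumors of a mouse summed. With single tumors left out it ran from -1.158 to 0.258 for Kif1a and from -0.721 to 0.315 for Lrrn2, the ends being without JM1126 and without JM833-T1.

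The 768 genes higher in MaP R172H/- tumors became 1456 with DESeq2, 449 with the filter of at least 1 count in any tumor, 380 with the tumors of a mouse summed, 507 over protein-coding genes, 354 and 67 with an absolute log2 fold change above 1 and 2, 423 without YZ4, YZ7 and YZ11, and 441 to 827 with single tumors left out, the lowest without JM663-T2. The 992 lower genes became 1991, 552 over protein-coding genes, 220 above a change of 2, 458 without the 3 tumors, and 626 to 1039 with single tumors left out. For MaP R245W/- tumors, DESeq2 gave 170 higher and 257 lower, 1 fit of 3 groups gave 1 and 1, and single tumors left out gave 0 to 1 and 0 to 3.

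Of the neural genes, DESeq2 gave 2 higher and 2 lower. There were 0 higher with at least 10 counts in every tumor, with the tumors of a mouse summed, with 1 fit of 3 groups, without YZ4 and YZ7, without those and YZ11, and above a change of 2. There were 2 lower with at least 1 count in any tumor, with 1 fit of 3 groups and without YZ4 and YZ7, and 0 with at least 10 counts in every tumor. Single tumors left out gave 0 to 2 in each direction, and DESeq2 gave 1 lower in MaP R245W/- tumors. The share of the highest tumor ran from 48.42% to 87.86% for Kif1a and from 48.15% to 74.93% for Msi1 with single tumors left out, the highest without YZ4. Of the 5 most alike genes, Spearman's rho shared 2 for Kif1a, 1 for Grin1, Lrrn2 and Fbxo2 and 0 for Msi1, a pseudocount of 0.1 shared 3 for Grin1, Fbxo2 and Msi1, and leaving out YZ7 shared 1 for each gene but Fbxo2, with 0.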
